A study of Mus musculus with 20 samples.

Results

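The neurotrophins are a small family of secreted growth factors, described here through 7 genes measured in the mouse cochlea. Bdnf (brain-derived neurotrophic factor), Ntf3 (neurotrophin-3) and Ntf5 (neurotrophin-4) encode ligands. Ntrk2 and Ntrk3 encode the receptor tyrosine kinases TrkB and TrkC, Ngfr encodes the p75 neurotrophin receptor, and Sort1 encodes sortilin, a sorting receptor that also binds neurotrophin precursors together with p75. The genes were chosen by name as the ligands and receptors of this family, and all 7 were found among the 24411 rows of the deposited expression tables. As background, BDNF and neurotrophin-4 signal mainly through TrkB and neurotrophin-3 mainly through TrkC, p75 binds all of them, and in the developing cochlea BDNF and neurotrophin-3 from the sensory epithelium maintain the spiral ganglion neurons (SGNs) that innervate the hair cells.

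The 20 libraries came from sensory epithelium and SGNs dissected together, each from a pool of 4 mice. The heterozygous controls were Bai1 tm2b/+ mice and were compared with Bai1 tm2b/tm2b mice, all on the C57BL/6N background. The tm2b allele lacks exons 3 and 4 of Adgrb1, the gene for the adhesion receptor BAI1, in every cell and carries a lacZ trapping cassette, so that the controls also carried 1 copy of it. At P22 there were 3 libraries of each genotype, given as estimated counts that summed to between 35725985 and 40350413 per library. At P7, replicates 5 to 7 of each genotype were given as estimated counts (31108551 to 58807173 per library), whereas replicates 1 to 4 were given as whole numbers that summed to between 999644 and 999777 and behave as rounded TPM (abundance per transcript length, brought to a common total), with unknown depth. The labels name a pair of P7 batches of these sizes and 1 batch at P22, so the P7 sets were compared between genotypes separately, and age cannot be told apart from batch. Because the tissue was bulk, fewer cells of a type and less RNA per cell cannot be told apart in any of the values below.

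Adgrb1 was lower in Bai1 tm2b/tm2b than in Bai1 tm2b/+ libraries at P22. It held 93.2, 90.6 and 95.8 CPM (counts brought to a common library total, with TMM scaling) against 139, 137 and 151 CPM. The difference was 1.53-fold (log2 −0.61, adjusted p = 0.000602 by edgeR's quasi-likelihood test). Scaled to neuron markers Adgrb1 did not pass (log2 −0.17, adjusted p = 0.0587 by the same test). That scaling moved the median of all genes from 0.01 to 0.45, and Adgrb1 stayed below it. In the P7 counts it was 29.5, 23.7 and 34.3 CPM against 35.5, 61.6 and 39.4 CPM, without overlap but short of the threshold (adjusted p = 0.894). In that set 10.6% of all genes tested did not overlap. In the rounded TPM set it was 9, 9, 10 and 12 TPM against 10, 12, 8 and 7 TPM, so that the gene-level value of Adgrb1 did not separate the genotypes there. The paper reported that the allele leaves a short Adgrb1 isoform intact and that reads of the long isoform were lost at both ages. Each value here sums all isoforms. Summed markers also moved with genotype at P22. The 12 neuron markers ranged from 14003 to 15957 CPM in Bai1 tm2b/+ and from 10305 to 11756 CPM in Bai1 tm2b/tm2b libraries, 12 hair cell markers from 471 to 495 and from 602 to 699 CPM, 11 supporting cell markers from 1027 to 1145 and from 1233 to 1299 CPM, and 8 markers of central glia from 601 to 725 and from 864 to 1386 CPM. No marker of these lists was at 0 in all 3 P22 libraries of a genotype, and the part of these shifts in the values of the neurotrophin genes was not tested.

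The genes lie on 6 chromosomes of GRCm38 (mm10). In the GENCODE M21 annotation Bdnf is at chr2:109674700-109727007 and Ntrk2 at chr13:58806569-59133970, both on the plus strand, as are Ntf5 at chr7:45413695-45417179 and Sort1 at chr3:108284082-108361511. Ntf3 is at chr6:126101412-126166910, Ntrk3 at chr7:78175959-78738012 and Ngfr at chr11:95568818-95587735, on the minus strand. Each deposited value sums all exons and isoforms of a gene. Ntrk2 has 7 coding transcripts with proteins of 466 to 821 amino acids and Ntrk3 has 6 with proteins of 82 to 864 amino acids, so full-length receptors with a kinase domain and truncated receptors were not separated. For Bdnf, 14.4% of the exon bases lie opposite Gm45346, and for Sort1 4.47% lie opposite Gm12523. Reads of these pairs cannot be separated without strand, and whether the counting used strand is not given in the sources used here.

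Bdnf is a textbook target of the activity-dependent factor CREB, whose binding element is TGACGTCA and whose shorter core is TGACG. The start windows available for the family (short stretches around annotated transcript starts, RefSeq, GRCm38.p6) comprised 7 for Bdnf, 2 for Ntf3 and 1 each for Ntrk2 and Ngfr. Searched on both strands, the full element was in none of these windows and in 1.79% of all 32851 windows, and the core, which the full element contains, was in 1 Bdnf window and in 20.8% of all windows. The stretch is shown because it is the only match of the family (chr2:109692390-109692416, plus strand, with the core in capitals, where it reads on the reverse strand).
Bdnf: atgacagctcaCGTCAaggcagcgtgg
A match is a description of the letters only, and the gene-level values do not show which start was used.

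At both ages Sort1, Ngfr and Ntrk2 were more abundant than every ligand. On a scale per length (TPM computed from the counts with the union of exons, 6 libraries per age), Sort1 was the most abundant member at P7, with a lowest value, median and highest value of 113, 120 and 131. Ngfr followed with 55.5, 65.8 and 111, and Ntrk2 with 33.9, 35.7 and 40.9. Among the ligands Ntf3 stood at 15.1, 20.8 and 27.3, whereas Bdnf stood at 2.97, 3.84 and 5.33 and Ntf5 at 2.50, 3.21 and 5.75. Ntrk3, with 3.43, 4.51 and 6.65, overlapped with Bdnf, and Bdnf overlapped with Ntf5, so the order of these neighbors was within the spread between libraries.

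**Figure D1:**
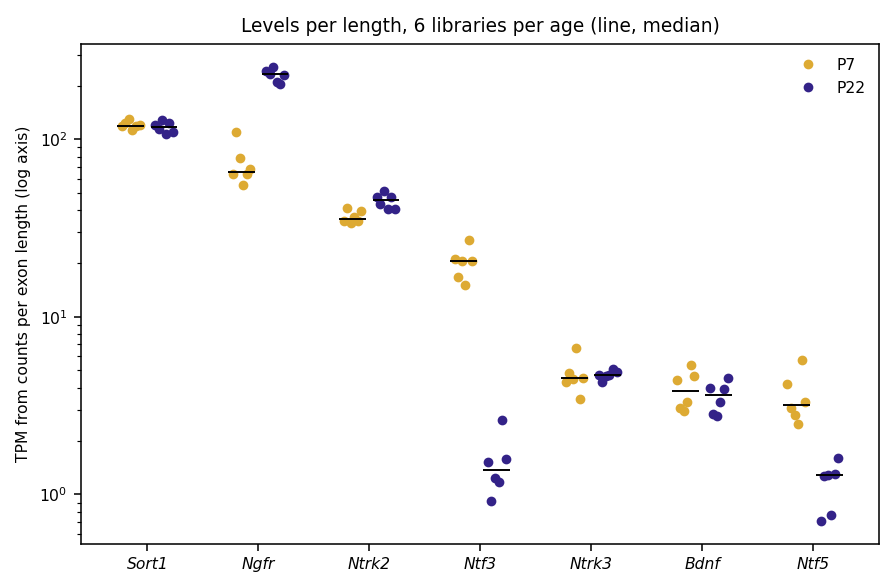
Level of each neurotrophin gene per length (TPM from counts, log scale) in each of the 6 P7 and 6 P22 libraries in counts, 1 point per library and lines for medians. Ngfr had the highest median at P22 (232) and Sort1 at P7 (120), and the Ntf3 points at P22 lie below 3 TPM.

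At P22 the order differed. Ngfr was the most abundant member with 206, 232 and 257 (lowest, median and highest TPM per length), above Sort1 with 107, 117 and 128 and Ntrk2 with 40.4, 45.4 and 51.2. Ntrk3 (4.32, 4.70 and 5.10) again overlapped with Bdnf (2.76, 3.62 and 4.53). Ntf3 stood at 0.922, 1.38 and 2.62 and overlapped with Ntf5 at 0.710, 1.28 and 1.61. Parts of the order depend on the length used or on the set of libraries. With the longest transcript in place of the union of exons, the medians of Ntrk2 and Ngfr at P7 were 59.4 and 49.6, the opposite order. Ntf3 stayed above Ntrk3 with that length (medians of 18.1 and 5.22 at P7). In the deposited rounded TPM of the other P7 libraries, which differ in unit and batch, Ntrk3 (10 to 17) was above Ntf3 (6 to 9).

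Ntf3 fell between P7 and P22, and it was the largest change in the family on the common CPM scale of the 12 libraries in counts. At P7 the Bai1 tm2b/+ libraries held 8.38, 6.94 and 8.30 CPM and the Bai1 tm2b/tm2b libraries 5.40, 10.8 and 8.26 CPM. At P22 the values were 0.767, 0.471 and 0.616 CPM and 0.596, 1.27 and 0.781 CPM. The 2 ages did not overlap in either genotype, although the P22 values rest on only 15 to 48 counts per library. The mean fell from 8.01 ± 1.79 to 0.751 ± 0.280 CPM (SD, n = 6), a log2 fold change of −3.41 (SE 0.223, adjusted p = 5.50e-09) or 10.7-fold. With age, 13015 of 16314 genes tested passed, which is 79.8%, with 38.1% higher and 41.7% lower at P22. Against that background 6 of the 7 neurotrophin genes passed, 4 higher and 2 lower, and a count of this size is read beside a tissue in which most genes passed.

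**Figure D2:**
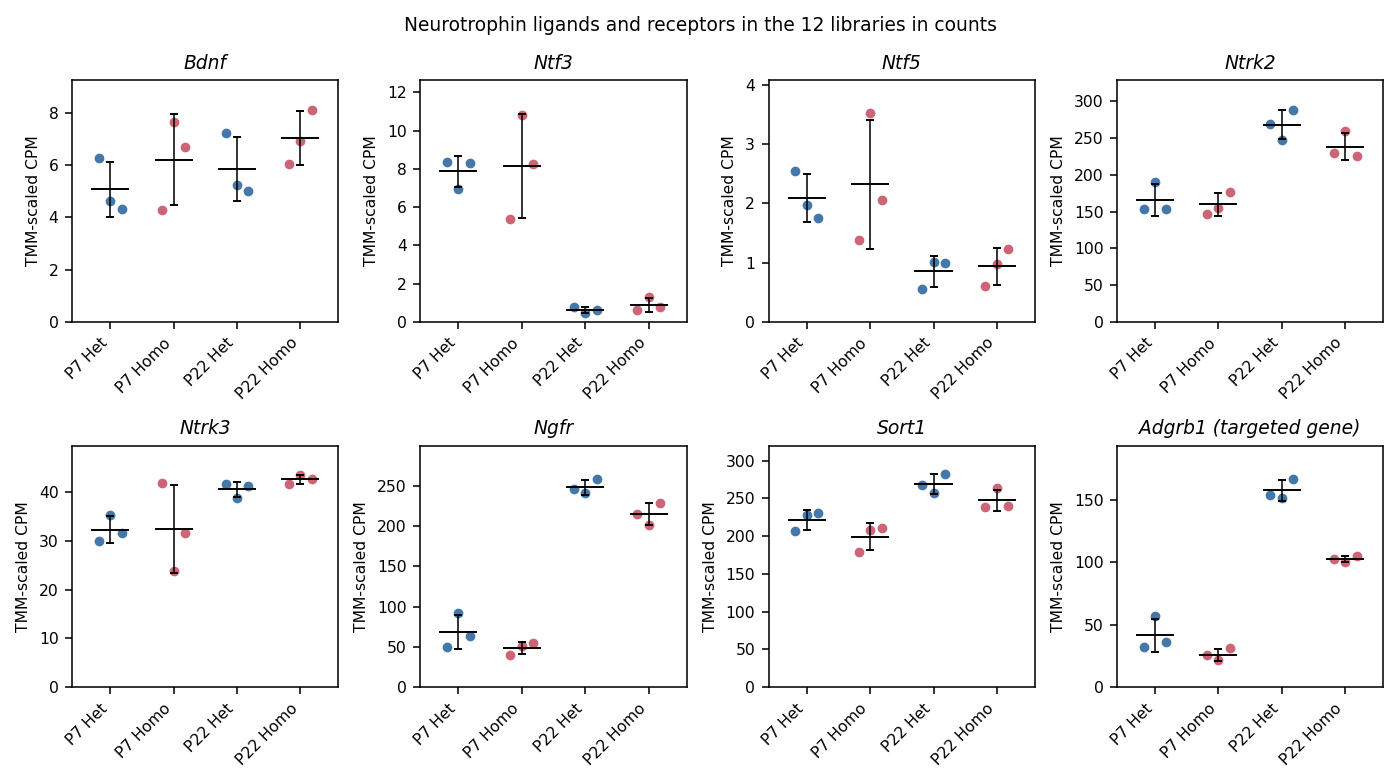
CPM of each neurotrophin gene and of Adgrb1 in every library in counts, by age and genotype (Het, Bai1 tm2b/+ and Homo, Bai1 tm2b/tm2b), with points for libraries, horizontal lines for means and bars for SD (n = 3). Ntf3 at P22 (0.471 to 1.27 CPM) lies below all P7 libraries (5.40 to 10.8 CPM), and Ngfr at P22 (201 to 259 CPM) above all of them.

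The other ligands differed from Ntf3. Ntf5 held 2.54, 1.98 and 1.74 CPM in Bai1 tm2b/+ libraries against 1.38, 3.52 and 2.05 CPM in Bai1 tm2b/tm2b libraries at P7, against 0.552, 1.00 and 0.998 CPM and 0.596, 0.980 and 1.23 CPM at P22. It fell 2.45-fold (log2 −1.29, SE 0.261, adjusted p = 0.000421), without overlap between ages. Bdnf held 6.25, 4.63 and 4.32 CPM and 4.27, 7.65 and 6.68 CPM at P7, and 7.24, 5.24 and 5.02 CPM and 6.04, 6.92 and 8.12 CPM at P22. These ranges overlapped, and the age difference did not pass the test (log2 0.20, 95% interval −0.14 to 0.53, adjusted p = 0.261).

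The ratio of 2 genes within a library does not depend on how libraries are scaled. Ntf3 counts were 1.34, 1.5 and 1.92 times those of Bdnf in the P7 Bai1 tm2b/+ libraries and 1.26, 1.41 and 1.24 times in the Bai1 tm2b/tm2b libraries. At P22 the ratio was 0.106, 0.0898 and 0.123 in Bai1 tm2b/+ libraries against 0.0987, 0.184 and 0.0962 in Bai1 tm2b/tm2b libraries. Ntf3 therefore had more counts than Bdnf in all 6 libraries at P7 and fewer in all 6 at P22, an age comparison of ratios that is given as a description.

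Among the receptors, Ngfr rose with age. It held 50.1, 92.1 and 63.2 CPM in Bai1 tm2b/+ libraries against 39.9, 50.6 and 54.3 CPM in Bai1 tm2b/tm2b libraries at P7, and 245, 240 and 259 CPM and 214, 201 and 228 CPM at P22. The rise was 4.02-fold (log2 2.01, SE 0.130, adjusted p = 4.98e-09), without overlap. The ratio of Ngfr to Ntrk2 counts lay between 0.271 and 0.482 in the 6 P7 libraries and between 0.773 and 1.01 in the 6 P22 libraries. In the P7 libraries in rounded TPM, a scale per length, the deposited ratio lay between 0.846 and 1.41, and it is not comparable with the ratio of counts.

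Ntrk2 rose 1.56-fold (log2 0.64, SE 0.0738, adjusted p = 2.21e-06). Its P7 values were 154, 191 and 153 CPM in Bai1 tm2b/+ libraries against 147, 155 and 177 CPM in Bai1 tm2b/tm2b libraries, and its P22 values 269, 248 and 288 CPM and 230, 260 and 226 CPM. The ages did not overlap. Smaller rises on this scale were measured for Ntrk3 (1.28-fold, log2 0.36, adjusted p = 0.00548) and Sort1 (1.23-fold, log2 0.30, adjusted p = 0.000253), and both were lost with library totals in place of TMM, as given below. Ntrk3 overlapped between ages, with 23.9 to 41.8 CPM at P7 and 38.8 to 43.5 CPM at P22, and Sort1 did not, with 178 to 231 CPM and 239 to 283 CPM. In all, 5 of 7 members did not overlap between ages, against 62.5% of all genes tested.

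The summed cell type markers also differed with age, and the direction of most age differences in the family depends on what the libraries are scaled to. On the common scale the summed neuron markers rose from 1110–2896 CPM at P7 to 11382–17619 CPM at P22 and the 12 Schwann cell and myelin markers from 6159–17611 to 23426–28514 CPM, whereas the supporting cell markers, counted without Ngfr, fell from 5782–10874 to 1134–1434 CPM. With library totals in place of TMM the median of all genes was −0.34 (log2) instead of −0.05, and the age differences were 0.07 for Ntrk3 (adjusted p = 0.587), 0.01 for Sort1 (adjusted p = 0.834) and −0.09 for Bdnf. Scaled to the Schwann cell and myelin markers, Ntrk2, Ntrk3, Sort1 and Bdnf had negative age differences (−0.54, −0.77, −0.90 and −1.05). Scaled to the neuron markers Ngfr did too (−1.09). The median of all genes was −1.24 with Schwann cell, −3.21 with neuron and 2.58 with supporting cell scaling. Ntf3 was lower at P22 under each of the 9 alternatives that scaled or tested all 12 libraries or 1 genotype in another way, from −6.56 scaled to neuron markers to −0.74 scaled to supporting cell markers, while Ntf5 was higher (1.40) in the last of these. The part of cell composition in these values was not tested.

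**Figure D3:**
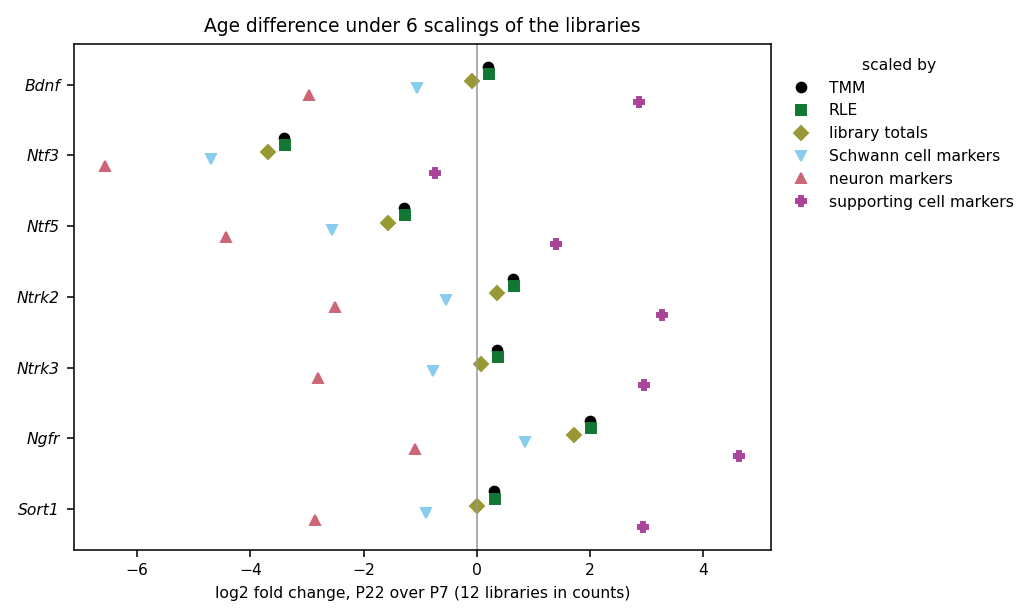
Log2 age difference (P22 over P7) of each neurotrophin gene under 6 scalings (TMM, DESeq2 size factors as RLE, library totals, and summed neuron, Schwann cell or supporting cell markers), 1 point per scaling. Ntf3 lies below 0 throughout, whereas each of the other 6 genes lies on both sides of 0.

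The age difference was not found to depend on genotype for any member. The interaction of age and genotype was 0.46 for Ntf3 (log2, SE 0.438, 95% interval −0.49 to 1.41, adjusted p = 0.758) and 0.29 for Ngfr (SE 0.246, 95% interval −0.25 to 0.82, adjusted p = 0.724). Of all 16314 genes, 5 passed this test, which is 0.0306%, and 1666 had an unadjusted p under 0.05. The intervals of Ntf3 and Ngfr leave room for differences of the size of many genotype changes measured here.

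At P22 no neurotrophin gene passed the genotype test, whereas 1904 of 15443 genes did, which is 12.3%, with 5.04% higher and 7.28% lower in Bai1 tm2b/tm2b libraries. Ngfr came nearest. Its values were 222, 217 and 234 CPM in Bai1 tm2b/+ libraries against 194, 182 and 208 CPM in Bai1 tm2b/tm2b libraries, so that the genotypes did not overlap. The log2 fold change was −0.20 (SE 0.0623, 95% interval −0.34 to −0.06) with an unadjusted p of 0.00826 and an adjusted p of 0.0600 by edgeR's quasi-likelihood test, while the Wald test of DESeq2 gave an adjusted p of 0.0191 with the same fold change. Scaled to the neuron markers the sign turned (0.24), while the median of all genes moved from 0.01 to 0.45, so that Ngfr stayed below it. Scaled to Schwann cell and myelin markers Ngfr was −0.34, with the median of all genes at −0.13. Ngfr passed under both scalings. The direction of Ngfr is therefore relative to the scaling.

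Ntrk2 held 243, 223 and 261 CPM in Bai1 tm2b/+ libraries against 208, 235 and 206 CPM in Bai1 tm2b/tm2b libraries at P22. The groups overlapped through 1 library each, and the log2 fold change was −0.16 (unadjusted p = 0.0497, adjusted p = 0.174). Ntrk3 held 37.6, 34.9 and 37.3 CPM against 37.7, 39.4 and 38.8 CPM, ranges that only just did not overlap, with a difference of 0.08 (SE 0.0646, adjusted p = 0.454). Sort1 differed by −0.11 (adjusted p = 0.253). Ngfr and Ntrk3 were the 2 members without overlap, against 33.6% of all genes tested at P22. Scaled to neuron markers Ntrk2 and Sort1 turned to positive values (0.28 and 0.33), below the shifted median of all genes (0.45). Ntrk3 was 0.52 under that scaling, above this median. All of these genes then passed, as did most genes tested. Scaled to Schwann cell and myelin markers Ntrk3 turned to a negative value (−0.06), above the shifted median of all genes (−0.13).

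The ligands had few counts at P22 and wide intervals. Bdnf held 6.54, 4.72 and 4.55 CPM in Bai1 tm2b/+ libraries against 5.47, 6.26 and 7.39 CPM in Bai1 tm2b/tm2b libraries (167 to 291 counts), with a log2 fold change of 0.28 (95% interval −0.12 to 0.67, adjusted p = 0.337). Ntf3 rested on 25, 15 and 21 counts against 22, 48 and 28 counts, with a difference of 0.52 (SE 0.385, 95% interval −0.33 to 1.37), and Ntf5 on 18, 32 and 34 against 22, 37 and 44 counts, with 0.14 (SE 0.377, 95% interval −0.69 to 0.97). Moderate genotype differences in Ntf3 and Ntf5 could therefore be missed at this depth and number of pools. Scaled to neuron markers, Bdnf (0.72, adjusted p = 0.00858) and Ntf3 (0.98, adjusted p = 0.0482) passed edgeR's quasi-likelihood test. Every other member except Ntf5 passed under that scaling too. It gave 11885 of 15443 genes an unadjusted p under 0.05, and the median of all genes was 0.45.

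**Figure D4:**
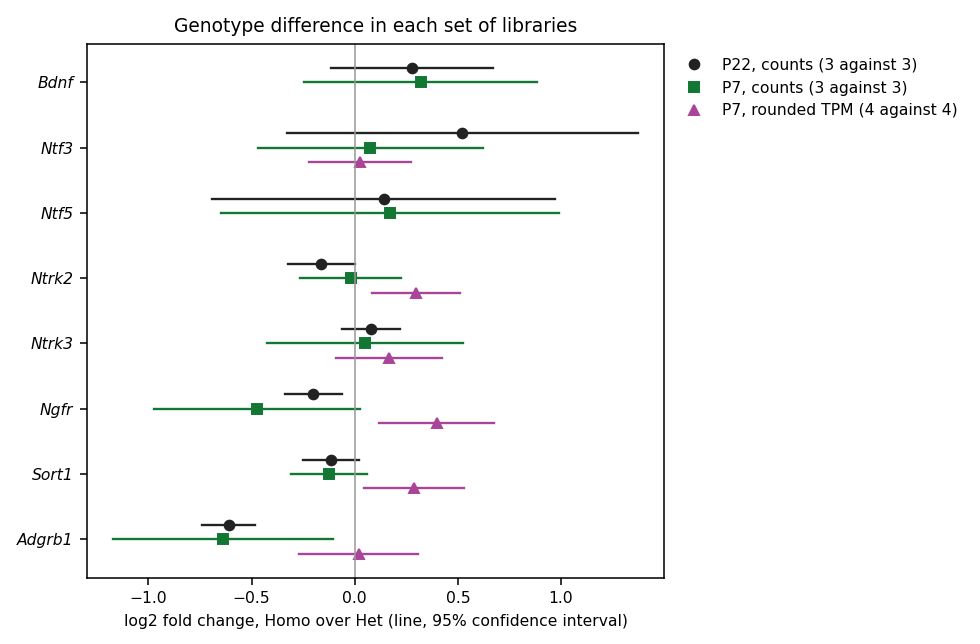
Log2 fold change of each neurotrophin gene and of Adgrb1 (Bai1 tm2b/tm2b, Homo, over Bai1 tm2b/+, Het) at P22, in the P7 counts and in the P7 rounded TPM, with 95% intervals. Adgrb1 is lower at P22 (−0.61), and Ngfr lies at −0.20, −0.47 and 0.40 in the 3 comparisons.

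In the P7 libraries in counts no gene of 16026 passed the genotype test of edgeR, which is 0%, with 763 genes at an unadjusted p under 0.05 and 60 genes called by DESeq2. Ngfr was 55.2, 99.8 and 69.1 CPM in Bai1 tm2b/+ libraries against 45.8, 55.8 and 59.6 CPM in Bai1 tm2b/tm2b libraries, a log2 fold change of −0.47 (SE 0.212, unadjusted p = 0.0601, adjusted p = 0.894), with overlapping groups. The highest of these libraries, Bai1 tm2b/+ replicate 6, was also the highest for Adgrb1 and for the summed neuron markers, at 3140 CPM against 1276 to 1932 CPM in the 5 others. All 12 Schwann cell and myelin markers had negative genotype differences in this set (median log2 −0.34, sums of 11590–19095 CPM in Bai1 tm2b/+ and 6786–13802 CPM in Bai1 tm2b/tm2b libraries), as did 10 of 12 neuron markers (median −0.33), none of them past the threshold. Scaled to the neuron markers Ngfr differed by −0.087 (adjusted p = 0.874) and scaled to the Schwann cell and myelin markers by 0.14 (adjusted p = 0.779). The median of all genes was then 0.30 and 0.53, against 0.003 under TMM, and Ngfr stayed below it.

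The other members differed by less in the P7 counts. Bdnf held 6.89, 5.02 and 4.72 CPM against 4.91, 8.43 and 7.34 CPM (log2 0.32, SE 0.240), and Ntf3 held 9.23, 7.53 and 9.08 CPM against 6.20, 11.9 and 9.08 CPM (0.08, SE 0.232). Ntrk2 was 170, 207 and 167 CPM against 169, 171 and 195 CPM (−0.02, 95% interval −0.27 to 0.23), and Ntrk3 was 32.9, 38.3 and 34.7 CPM against 48.1, 26.3 and 34.8 CPM (0.05, 95% interval −0.43 to 0.53). Ntf5 differed by 0.17 and Sort1 by −0.12. The genotypes overlapped for all 7 members, beside 10.6% of all genes tested without overlap in this set, and adjusted p values lay between 0.894 and 0.982.

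In the P7 libraries in rounded TPM, 942 of 11740 genes passed, which is 8.02%, and none of the 5 members above the minimum mean of 5 TPM was among them. The receptors had higher means in Bai1 tm2b/tm2b libraries, short of the threshold. Ngfr was deposited as 48, 49, 33 and 36 TPM in Bai1 tm2b/+ libraries against 46, 63, 65 and 62 TPM in Bai1 tm2b/tm2b libraries, with overlap through 1 library (log2 0.40, SE 0.125, adjusted p = 0.0642 by limma). Ntrk2 was 42, 43, 39 and 29 TPM against 47, 53, 46 and 56 TPM, without overlap, which was true of 18.2% of all genes (log2 0.30, SE 0.0959, adjusted p = 0.0688). Sort1 was 54, 50, 44 and 44 TPM against 50, 77, 68 and 61 TPM (log2 0.29, SE 0.109, adjusted p = 0.0990). These results stood near the threshold. The smallest adjusted p of any gene was 0.0435, and 0 to 2721 genes passed with 1 library left out. Without Bai1 tm2b/tm2b replicate 1, 2721 genes passed, Ngfr (0.50, adjusted p = 0.0173) and Sort1 (0.38, adjusted p = 0.0194) among them, and without TMM Ntrk2 (0.40, adjusted p = 0.0494) and Ngfr (0.51, adjusted p = 0.0466) passed. Without TMM the median of all genes was 0.12, and 4335 of 11740 genes had an unadjusted p under 0.05. Scaled to the neuron markers the differences were 0.0064 for Ntrk2 (adjusted p = 0.985), 0.11 for Ngfr (adjusted p = 0.745) and −0.0034 for Sort1 (adjusted p = 0.993). The median of all genes was then −0.27, against 0.01 under TMM.

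**Figure D5:**
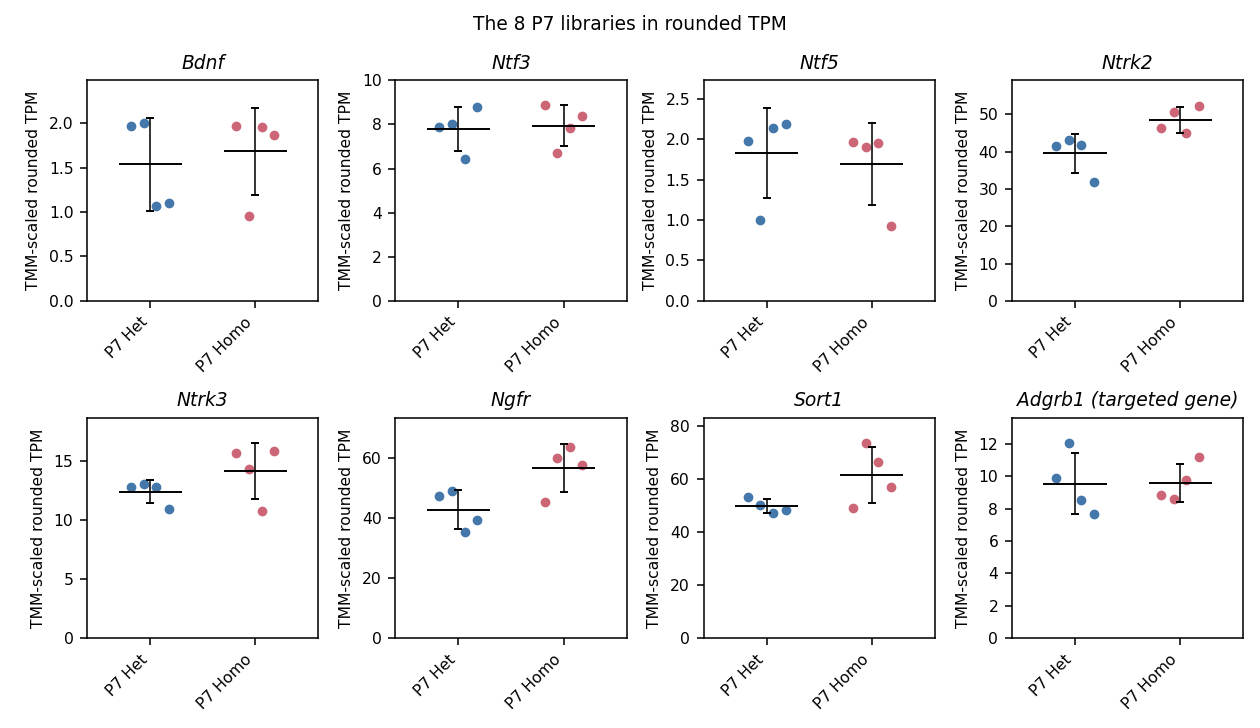
Rounded TPM after TMM scaling of each neurotrophin gene and of Adgrb1 in the 8 P7 libraries of replicates 1 to 4, with Het for Bai1 tm2b/+ and Homo for Bai1 tm2b/tm2b, 1 point per library, horizontal lines for means and bars for SD. Ntrk2 lies between 31.9 and 43.2 in Het and between 45.01 and 52.2 in Homo libraries, and Bdnf and Ntf5 lie near the deposited values of 1 and 2.

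Ntrk3 held 13, 13, 12 and 10 TPM against 16, 15, 11 and 17 TPM (log2 0.16, adjusted p = 0.333), and Ntf3 held 8, 8, 6 and 8 TPM against 9, 7, 8 and 9 TPM (0.03, adjusted p = 0.888). Bdnf and Ntf5 were listed at 1 or 2 TPM in every library, so rounding alone spans the range of their values and no difference could be resolved. Fold changes in this set are on the log2 scale of values plus 1, which understates changes of low genes. Marker lists differed in both directions in this set, and their part in the receptor values was not tested. All 11 neuron markers tested were above 0 (median log2 0.23, 1 passed), with sums of 1654–2705 in Bai1 tm2b/+ and 2060–2858 in Bai1 tm2b/tm2b libraries (scaled TPM). All 7 markers of central glia tested were below 0 (median −0.40, 2 passed), with sums of 432–627 and 358–436. Supporting cell markers summed to 2313–3305 and 3123–3616 and erythroid and marrow markers to 3207–4229 and 1736–3632. Hair cell markers summed to 508–734 and 401–663 and Schwann cell and myelin markers to 20044–21597 and 12595–24564. All these sums overlapped between genotypes, and no marker of the neuron and central glia lists was at 0 in all 4 libraries of a genotype.

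The genotype difference of Ngfr had opposite signs in the P7 sets, −0.47 in the counts and 0.40 in the rounded TPM. In a fit over both sets, the difference between sets was 0.83 (log2, SE 0.252, unadjusted p = 0.00523, adjusted p = 0.189), and it was 0.42 for Sort1 (SE 0.152, adjusted p = 0.218) and 0.31 for Ntrk2 (adjusted p = 0.286). No member passed, and 2 of 11721 genes did (0.0171%), with 2103 genes at an unadjusted p under 0.05. The sets differ in unit as well as in batch, which cannot be told apart.

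Ratios between members within a library were compared between genotypes by the exact 2-sided permutation test, for which 3 against 3 libraries cannot give a p below 0.1 and 4 against 4 none below 0.0286, so the sets of 3 could not pass. At P22 the log2 ratio of Ntrk3 to Ntrk2 was higher in all 3 Bai1 tm2b/tm2b than in all 3 Bai1 tm2b/+ libraries, and was −2.72 ± 0.0712 in Bai1 tm2b/+ and −2.48 ± 0.0863 in Bai1 tm2b/tm2b libraries (SD, n = 3, exact p = 0.1, adjusted p = 0.6 over 9 ratio tests), the smallest p possible. Ntf3 to Bdnf was −3.25 ± 0.226 and −3.05 ± 0.529 (exact p = 0.8). In the P7 counts Ntf3 to Bdnf was 0.65 ± 0.267 and 0.38 ± 0.102 (exact p = 0.2), and Ngfr to Ntrk2 was −1.32 ± 0.286 and −1.74 ± 0.136 (exact p = 0.2). The other 5 exact p values lay between 0.343 and 1.

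Of the 7 other ligands and receptors of the family, 4 passed with age, all lower at P22, beside 79.8% of all genes, and none passed for genotype at P22 (12.3% of all genes) or in either P7 set. Sorcs2, a sortilin relative that also pairs with p75, fell from 93.1–115 to 12.04–16.2 CPM (log2 −2.89, adjusted p = 4.63e-12). Sorl1, Sorcs3 and Nradd fell by 0.69, 0.40 and 0.36.

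The genes that process neurotrophin precursors or receptors numbered 11 tested of 14, of which 2 were higher and 7 lower at P22 than at P7, a share near the 79.8% of all genes. Mmp9, a matrix protease that can cleave the precursors, fell from 31.4–145 to 0.586–2.52 CPM (log2 −6.23), and Adam17, Pcsk6 and Plat fell by 1.27, 1.10 and 1.03. Cpe, the sorting carboxypeptidase E, rose by 0.96. For genotype at P22 1 of the 11 passed (12.3% of all genes), Plat (tissue plasminogen activator), which was higher in Bai1 tm2b/tm2b libraries (log2 0.37, SE 0.0994, adjusted p = 0.0369), and in the P7 rounded TPM Pcsk6 (0.35) and Pcsk5 (0.29), both proprotein convertases, passed among 10 tested (8.02% of all genes).

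Of 42 adaptors and kinases downstream of Trk receptors, 19 were higher and 14 lower at P22 than at P7, a share near the 79.8% of all genes. Kidins220, a Trk-interacting scaffold, rose by 1.91, Frs3 by 1.71, Shc2 by 1.13 and Pik3cb by 1.11, and Shc3, Sh2b2, Mapk7 and Nras fell by 2.51, 1.30, 1.24 and 1.23. For genotype at P22, 3 of 42 passed (12.3% of all genes), all lower in Bai1 tm2b/tm2b libraries, among them the kinase gene Rps6ka3 (−0.43, adjusted p = 0.0164) and the exchange factor gene Sos1 (−0.34, adjusted p = 0.0203). The list had a median of −0.08 against 0.01 over all genes. In the P7 rounded TPM 5 of 39 passed (8.02% of all genes), all higher, with Rps6ka3 (0.43), Kidins220 (0.41), Nedd4 (0.31), Rapgef1 (0.27) and Plcg1 (0.24) at adjusted p between 0.0435 and 0.0467, so that Rps6ka3 had opposite signs in the 2 comparisons. Without the minimum mean no gene passed in that set. In the P7 counts none of the genes in any of these lists passed.

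Of 21 partners of p75 signaling tested, 1 was higher and 6 were lower in Bai1 tm2b/tm2b libraries at P22, with a list median of −0.11 against 0.01 over all genes, beside 12.3% of all genes passing (5.04% higher and 7.28% lower). The coreceptor genes Rtn4r (Nogo receptor) and Lingo1, which form a complex with p75, fell by 0.65 (adjusted p = 0.00560) and 0.49 (adjusted p = 0.00469). The kinase genes Mapk10 and Mapk8 of the JNK family fell by 0.40 and 0.24 and the zinc finger gene Prdm4 by 0.25. The summed neuron markers were lower in the same libraries, and their part in these values was not tested. With age, 9 of 21 were higher and 10 lower, beside 79.8% of all genes passing, with Mapk10 (3.54), Rtn4r (2.20), Bcl2l1 (1.47) and Lingo1 (1.39) among those higher and Traf4 (−1.54) among those lower. In the P7 rounded TPM 1 of 20 passed (8.02% of all genes), the cell death gene Bad (−0.28, adjusted p = 0.0479).

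The GDNF family, a separate group of neurotrophic factors kept for comparison, had 4 genes higher and 5 lower of 9 tested with age (79.8% of all genes passed), among them Gfra4 (1.77), Ncam1 (1.13), Ret (0.79) and Nrtn (0.67) on one side and Gfra2 (−1.81), Gfra3 (−1.40), Artn (−1.26) and Gdnf (−0.49) on the other. At P22, the ligand gene Artn was higher (1.11, adjusted p = 0.0219) and the receptor gene Ret lower (−0.46, adjusted p = 0.0367) in Bai1 tm2b/tm2b libraries, 2 of 8 tested (12.3% of all genes).

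Across the 12 libraries in counts, the genes whose log2 CPM followed each member most closely were named by Pearson's r among 14531 genes. The libraries fall into 2 age clusters that differ in batch and in summed cell type markers. A high r therefore mainly says that a gene separated the ages in the same way. For Ntf3 these were Dmrta1 (r = 0.997), Unc5b (0.997) and Rassf9 (0.996), and for Ngfr Cplx1, Nap1l2 and Asic1 (each 0.998). For Ntrk2 they were Ttc19, Fam168a and Sgip1 (each 0.987), for Sort1 Tmem248 (0.977), Scrn1 (0.971) and Ppp1r3e (0.969), and for Ntrk3 Sec14l5 (0.975), Dusp15 (0.975) and B230206H07Rik (0.970). Ntf5 was nearest to Tmem216 (0.967), Ovol2 (0.953) and Tspan12 (0.952). Bdnf, the member without an age difference past the threshold, had the lowest values, with Tmem27 (0.867), Diap1 (0.867) and Tspan8 (0.832).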

How the data were processed

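The authors prepared poly A libraries, ran the nf-core pipeline on paired-end reads (genome mm10) and quantified genes with Salmon. The submitters' notes name STAR, Salmon and DESeq2, and versions are not given in the sources used here. The deposited P22 values and those of P7 replicates 5 to 7 are estimated counts without normalization. The deposited values of P7 replicates 1 to 4 are a score, read here as TPM rounded to whole numbers and tested on log values. Libraries were grouped by the labels, and p values measure the spread between pools.

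Estimated counts were rounded, filtered with filterByExpr, scaled by TMM and tested in R 4.3.3 with edgeR 4.0.16 (quasi-likelihood F test), separately for P22, for P7, and over the 12 libraries joined, with age and genotype as terms and, in a second fit, their interaction. The SE is the fold change divided by the square root of F. Rounded TPM values were scaled by TMM and tested with limma 3.58.1 on log2 values plus 1, where the mean was 5 or more. A gene passed at a Benjamini-Hochberg adjusted p under 0.05. DESeq2 1.42.0 was an alternative, as were other filters, scalings, thresholds, the replicate block and each library left out. The fits were also run on simulated counts with known changes. These were drawn independently, with the same spread beyond counting noise for every gene, so they do not show the error rate in these libraries.

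The 7 members and the gene lists were chosen with earlier results of these data known. Within each list, up to 6 genes past the threshold with the largest change were named (up to 4 each way with age), and for each member the 3 genes with the highest correlation of log2 CPM. Some genes of the lists are counted but not reported here by name. The ratio tests used 2-sided exact permutation. Same-numbered replicates did not deviate together (correlations from −0.23 to 0.07), so numbers were not taken to pair samples.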

Additional observations from a re-analysis of the deposited data

Results flagged for a closer look

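In the 4 libraries of each genotype given as rounded TPM at P7, 16 groups were tested for a library far from the others. Dixon's ratio of TMM-scaled values was used at its 95% critical value, and 4 groups stood out. The deposited values are whole numbers and the groups share the same libraries, so this number cannot be set against a chance rate. Ntrk2 in Bai1 tm2b/+ replicate 4 gave a ratio of 0.852, with a deposited value of 29 TPM against 39 to 43 in the other libraries, and Ntrk3 in the same library gave 0.898, with 10 TPM against 12 to 13. Bdnf in Bai1 tm2b/tm2b replicate 2 gave 0.898 and Ntf5 in Bai1 tm2b/tm2b replicate 4 gave 0.942, in both cases 1 TPM against 2 in the others, a difference of 1 rounding step.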

How the results depend on the processing

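Over the members and Adgrb1, 569 values kept their direction and side of the threshold under the alternatives, 4 fell below it, 11 rose past it and 70 turned sign. The causes were not tested. The comparison of the P7 sets, marker scaling of the rounded TPM, and library totals, Schwann cell and supporting cell scaling with age were chosen after seeing the data. The values below are log2 differences or numbers of genes. Marker scaling also shifted the median of all genes, as given above, so a turned sign is read beside that shift.

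For genotype at P22, scaling to neuron markers passed 11495 genes and 6 members and turned Ntrk2 (0.28), Ngfr (0.24) and Sort1 (0.33), and Adgrb1 no longer passed (−0.17), while Schwann cell scaling passed 2 members and turned Ntrk3 (−0.065). DESeq2 passed 1 member. An unadjusted p under 0.05 was given to 4638 of 15443 genes by Schwann cell scaling and to 4244 of 18650 by DESeq2. The study's limits (log2 fold change beyond 0.5, SE under 0.5), applied here to the edgeR fit and not to DESeq2, passed 487 genes. With 1 library left out 630 to 2108 genes and 0 members passed (630 without Bai1 tm2b/+ replicate 1, 975 without replicate 3 or without Bai1 tm2b/tm2b replicate 2, 1068 without its replicate 3), and Ntf5 ranged from −0.10 to 0.39.

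In the P7 counts DESeq2 passed 60 genes, neuron scaling 53 (Ntrk2 0.31, Sort1 0.18 turned) and Schwann cell scaling 65 (Ntrk2 0.52, Ngfr 0.14, Sort1 0.43 turned). Leaving out 1 library gave Ntf3 −0.17 to 0.28, Ntf5 −0.24 to 0.42, Ntrk2 −0.086 to 0.085 and Ntrk3 −0.20 to 0.23.

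In the P7 rounded TPM 0 genes passed without the minimum mean, 1539 genes and 2 members without TMM, 97 by the study's limits applied to the limma fit, 58 with neuron scaling (Ntf3 −0.24, Ntrk3 −0.11, Sort1 −0.0034, Adgrb1 −0.25 turned, Ntrk2 0.0064 and Ngfr 0.11) and 10 with Schwann cell scaling. With 1 library left out 0 to 2721 genes and 0 to 2 members passed (the highest without Bai1 tm2b/tm2b replicate 1), with Ntf3 at −0.056 to 0.095 and Adgrb1 at −0.069 to 0.12.

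With age, 5239 genes and 3 members passed when a log2 difference beyond 1 was required. Neuron scaling turned Bdnf (−2.96), Ntrk2 (−2.50), Ntrk3 (−2.81), Ngfr (−1.09), Sort1 (−2.86) and Adgrb1 (−1.16), Schwann cell scaling Bdnf (−1.05), Ntrk2 (−0.54), Ntrk3 (−0.77) and Sort1 (−0.90), supporting cell scaling Ntf5 (1.40) and library totals Bdnf (−0.089). In Bai1 tm2b/tm2b libraries alone Ntrk3 did not pass (0.36, adjusted p = 0.124). Genes higher and lower at P22 numbered 6212 and 6803 under TMM, 4380 and 8973 with library totals, 129 and 15888 with neuron, 1064 and 12558 with Schwann cell and 15124 and 345 with supporting cell scaling. With 1 library left out 12785 to 13159 genes and 6 members passed.

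For age by genotype DESeq2 passed 173 genes (Sort1 −0.0074) and no filter 8, and DESeq2 size factors turned Sort1 (−0.0085). With 1 library left out 0 to 112 genes passed (112 without P7 Bai1 tm2b/tm2b replicate 5), with Bdnf −0.24 to 0.15, Ntf5 −0.28 to 0.40, Ntrk3 −0.12 to 0.28, Sort1 −0.044 to 0.075 and Adgrb1 −0.24 to 0.20. Between the P7 sets it was 0 to 27 genes, Ntf3 −0.22 to 0.19 and Ntrk3 −0.054 to 0.38. Log2 ratio differences ranged from −0.11 to 0.35 (Ntf3 to Bdnf, P22), −0.12 to 0.068 (Ngfr to Ntrk2, P22), −0.24 to 0.21 (Ntrk3 to Ntrk2, P7 counts), −0.28 to 0.092 (Ntf3 to Bdnf, rounded TPM) and −0.015 to 0.19 (Ngfr to Ntrk2, rounded TPM).

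With the replicate number as a block, 1505 genes passed at P22, 0 in the P7 counts and 0 in the P7 rounded TPM, and no member's call changed. The numbers are not known to pair samples.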
